A study of Mus musculus with 2 samples.

Results

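Secreted and receptor genes of quiescent hepatic stellate cells, 9 in all, with 1 transcription factor gene, were followed across the cell types of a control liver library and a library from a liver with partial inferior vena cava ligation (pIVCL). They were chosen by symbol, as the rows named Hgf, Angptl6, Bmp10, Reln, Ecm1, Colec10, Colec11, Ngfr, Pth1r and Lhx2 in both count matrices, and are 10 of the 31053 genes listed there. All 10 were found in both libraries. The mice were C57BL/6 (C57B6 in the growth protocol) that entered the study at 8 to 10 weeks of age, and the ligation, which narrows the vein that drains the liver and so congests the organ and raises portal pressure, lasted 6 weeks. Each group held 1 library of a mixed suspension of hepatocytes and non-parenchymal cells, with the hepatocytes isolated by collagenase perfusion and the others by protocols published elsewhere. The group follows the genotype label and, for the control, a title that calls it healthy. The growth protocol attached to both samples, the control included, describes the ligation, so each comparison rests on those labels. A sham operation for the control and the number of animals per library are not stated in the labels.

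Hepatic stellate cells are the pericytes of the liver sinusoid. In the healthy organ they store retinoid in lipid droplets and send out growth factors and lectins to hepatocytes, endothelium and blood, and after injury they can turn into matrix-producing myofibroblasts. Hgf encodes hepatocyte growth factor, the ligand of the MET receptor on hepatocytes. Angptl6 encodes an angiopoietin-like factor, and Bmp10 a ligand that, with BMP9, acts on endothelium through ALK1 and endoglin. Reln encodes the matrix protein reelin, and Ecm1 a secreted glycoprotein reported to hold TGF-beta in its latent form. Colec10 and Colec11 encode the collectins CL-L1 and CL-K1, soluble lectins that start the lectin pathway of complement. Ngfr encodes the low-affinity neurotrophin receptor, Pth1r the receptor for parathyroid hormone and its related peptide, and Lhx2 a LIM-homeodomain transcription factor, without which stellate cells of the mouse become activated.

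The genes are dispersed over the genome. In GENCODE M21 (GRCm38), Hgf lies at chr5:16553495-16620152 on the plus strand, Angptl6 at chr9:20873808-20879727 on the minus strand, Bmp10 at chr6:87428994-87437677 on the plus strand and Reln at chr5:21884454-22344702 on the minus strand. Ecm1 lies at chr3:95734147-95739569 on the minus strand, Colec10 at chr15:54410774-54466358 on the plus strand and Colec11 at chr12:28594173-28623377 on the minus strand. Ngfr lies at chr11:95568818-95587735 on the minus strand, Pth1r at chr9:110722085-110747145 on the minus strand and Lhx2 at chr2:38339281-38369733 on the plus strand. All 10 are protein-coding. Annotated genes on the same strand overlap Reln (3), Hgf (2) and Ecm1 (1, the microRNA gene Mir7014), and genes on the opposite strand overlap Reln, Angptl6, Colec10, Pth1r and Lhx2. The labels do not say how reads in such overlaps were assigned, so the levels of these genes carry that uncertainty.

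The 250 bases before the transcription start were available from RefSeq (GRCm38.p6) for 9 of the 10 genes. The windows of 4 genes are shown: Reln and Ecm1 have the most and the fewest CG dinucleotides of the set, Ecm1 and Bmp10 hold motifs, and Hgf is the ligand described first. CG in capitals marks CG dinucleotides in Reln and Hgf, TATAAA in capitals marks that motif in Ecm1, and AGATAA in capitals marks a GATA-type motif in Bmp10. The windows are chr5:22344706-22344955 (minus strand) for Reln, chr5:16553245-16553494 (plus strand) for Hgf, chr3:95739570-95739819 (minus strand) for Ecm1 and chr6:87428744-87428993 (plus strand) for Bmp10.
Reln: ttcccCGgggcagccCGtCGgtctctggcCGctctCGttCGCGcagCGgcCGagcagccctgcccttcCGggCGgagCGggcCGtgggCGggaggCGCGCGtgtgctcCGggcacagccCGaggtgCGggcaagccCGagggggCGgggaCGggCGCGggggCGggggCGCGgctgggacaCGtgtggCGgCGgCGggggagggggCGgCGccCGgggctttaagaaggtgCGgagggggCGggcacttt
Hgf: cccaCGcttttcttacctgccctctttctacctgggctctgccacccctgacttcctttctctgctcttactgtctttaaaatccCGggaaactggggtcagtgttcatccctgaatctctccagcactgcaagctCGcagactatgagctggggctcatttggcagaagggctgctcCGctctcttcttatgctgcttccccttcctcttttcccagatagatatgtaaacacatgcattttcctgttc
Ecm1: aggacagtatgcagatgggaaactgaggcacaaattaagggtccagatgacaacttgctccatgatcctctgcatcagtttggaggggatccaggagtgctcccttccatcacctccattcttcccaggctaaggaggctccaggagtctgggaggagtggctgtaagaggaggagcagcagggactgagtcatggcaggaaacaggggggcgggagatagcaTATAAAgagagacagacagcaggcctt
Bmp10: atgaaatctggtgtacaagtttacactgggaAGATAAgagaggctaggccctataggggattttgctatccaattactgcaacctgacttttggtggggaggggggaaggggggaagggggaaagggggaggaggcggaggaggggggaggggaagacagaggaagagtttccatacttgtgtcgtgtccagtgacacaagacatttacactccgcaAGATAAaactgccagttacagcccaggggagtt
The Reln window holds 37 CG dinucleotides and this Hgf window 4, against a median of 6 (quartiles 2 and 16) in 32851 windows of the same length. Ecm1 is the only one of the 9 genes with TATAAA, which 12.4% of all windows hold on either strand. AGATAA occurs in 2 places in Bmp10 and was also found before Colec11, and 9.99% of all windows hold it on either strand. TAATTA, the core bound by many homeodomain factors, was in none of the members' windows and in 4.84% of all windows. The 9 genes share neither a promoter composition nor any of these 3 motifs, which were searched on both strands, and a match is a description of the letters only.

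Levels are given as CPM, the unique molecular identifiers (UMIs, counted molecules) of a gene scaled to the total UMIs of its cell class, with an exact Poisson interval at 95%. Ratios are pIVCL over Control with an exact conditional interval. All intervals cover counting error only, and with 1 library per group no difference has a replicate check: a ratio compares these libraries, not the conditions, and no p-value is given. Kept cells numbered 2718 in Control (median 5263.5 UMIs) and 5443 in pIVCL (median 2005 UMIs), and 13 barcodes occurred in both libraries. Stellate-like cells numbered 190 of the Control cells (6.99%, interval 6.06% to 8.01%) and 98 of the pIVCL cells (1.80%, 1.46% to 2.19%). Their depths were closer than those of the whole libraries, with medians of 5672.5 and 5010 UMIs, and they held 1223412 and 511120 UMIs in all.

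All 10 genes were highest in stellate-like cells in both libraries, and all 10 stood lower in pIVCL stellate-like cells than in Control ones. All but Colec10, 9 of the 10, were lower past 2-fold, where 7.29% of 9009 genes with at least 20 summed UMIs in these cells were lower past 2-fold and 5.67% were higher past it. Among the 1514 genes with at least 200 summed UMIs, which include all 10, the share lower past 2-fold was 5.94%. The ratios ran from 0.183 for Ngfr to 0.608 for Colec10, with a median of 0.310. A larger share of the pIVCL class lay in sub-clusters led by markers of other cell types. In the sub-clusters not led by such markers 9 of the 10 were lower and 4 were past 2-fold, where 20.9% of 6068 genes were, and Colec10 stood at a ratio of 1.06.

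The label was given by 16 stellate markers, none of them among the 10 genes, so their levels describe the class and are no independent check. By the marker score that set the name, vascular smooth muscle came second, at 3.28 against 3.83. The stellate-like cells formed 1 cluster in which all 16 were detected in at least 10% of cells. Decorin (Dcn) stood at 19428 CPM in Control and 11608 in pIVCL, and Lrat, the retinol-esterifying enzyme of stellate cells, at 1668 and 892 CPM. The fibrillar collagen gene Col1a1 stood at 152 and 1430.2 CPM, Col1a2 at 564 and 1685 and Col3a1 at 847 and 3111. The pIVCL class was thus richer in these fibrillar collagen transcripts and poorer in Lrat. Col14a1, the other collagen gene among the markers, went the other way, at 2920 and 2618 CPM (ratio 0.897, 0.841 to 0.955). No member was used to build the clusters, yet Ecm1, Colec11, Reln and Pth1r were among the leading genes of this cluster.

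Clustering these 288 cells again, without the 10 genes, gave 8 sub-clusters, and 5 of them were led by markers of another class. Sub-cluster 1 (34 Control and 32 pIVCL cells) was led by hepatocyte genes such as Alb and Apoa1 and was shallow, with medians of 929.5 and 663.5 UMIs. Sub-cluster 4 (15 and 13 cells) was led by the smooth muscle genes Acta2, Actg2 and Cnn1, and sub-cluster 5 (10 and 12 cells) by sinusoidal endothelial genes such as Stab2. Sub-cluster 6 (5 and 14 cells) was led by the portal fibroblast genes Clec3b, Pi16 and Fbln1, and sub-cluster 7 (6 and 10 cells) by the Kupffer cell genes Clec4f and Cd5l. The remaining sub-clusters 2, 3 and 8 had no marker of another class among their 10 leading genes and are called unmixed. The small sub-cluster 8 (5 and 4 cells) was nevertheless led by immune genes such as Ltb and Cd52. It held B cell markers at 487 CPM and Kupffer cell markers at 1861 CPM, where the Kupffer cell markers stood at 238 and 331 CPM in sub-clusters 2 and 3. Sub-clusters 2, 3 and 8 together held 120 of the 190 Control cells and 17 of the 98 pIVCL cells. Sub-clusters 5 and 7 had Control medians of 17010.0 and 17306 UMIs, the highest of the class, and the doublet caller marked too few barcodes, 8 in Control and 3 in pIVCL, to be relied on.

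Over the whole class, the 10 portal fibroblast markers summed to 423 CPM in Control and 2277 in pIVCL, with none of them at 0 in either library. The 7 smooth muscle markers summed to 1515 and 3205 CPM, the 10 Kupffer cell markers to 1479 and 2733, the 10 sinusoidal endothelial markers to 2494 and 2502 and the 10 hepatocyte markers to 7884 and 7092. In the unmixed sub-clusters the portal fibroblast markers summed to 58.0 and 12.7 CPM, with 6 and 9 of the 10 at 0, and the Kupffer cell markers to 344 and 949. Smooth muscle markers there still summed to 893 and 2241 CPM, and hepatocyte markers to 5434 and 6912. The part of these other transcripts in each gene's ratio was not tested, so the whole-class and the unmixed values stand side by side below.

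**Figure D1:**
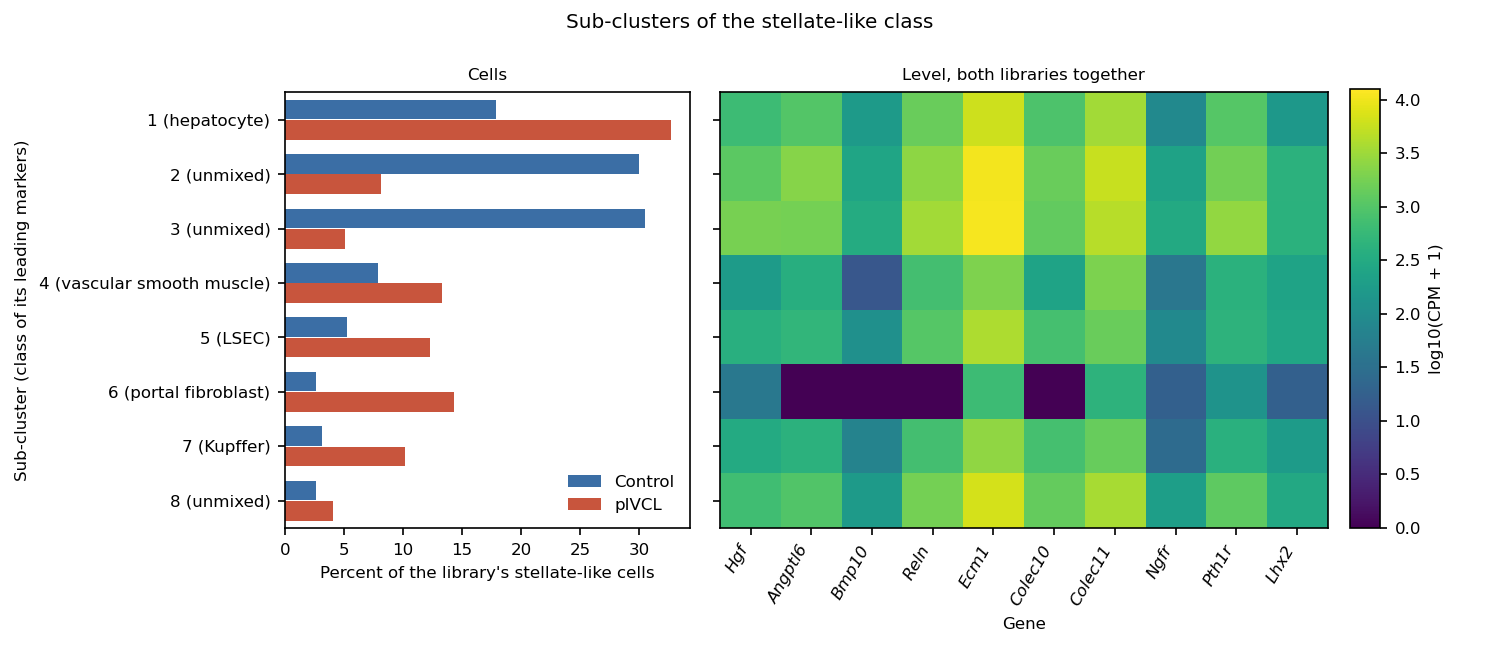
Left, the share of each library's stellate-like cells (percent, horizontal axis) in each of the 8 sub-clusters, Control in blue and pIVCL in red, with the class of the leading markers in brackets. Right, the level of each gene, log10(CPM + 1), in each sub-cluster over both libraries. Sub-clusters 2 and 3 hold most Control cells and few pIVCL cells, and sub-cluster 6 is at 0 for Angptl6, Bmp10, Reln and Colec10.

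Among the 10 genes Hgf had the lowest ratio after Ngfr. It stood at 1018 CPM in Control stellate-like cells (1245 UMIs, interval 962 to 1076) and 248 CPM in pIVCL (127 UMIs, 207 to 296), a ratio of 0.244 (0.202 to 0.293). Among the unmixed cells it stood at 1404 and 430.4 CPM (ratio 0.307, 0.211 to 0.431), so it was lower past 2-fold in both sets of cells. A Hgf UMI was found in 57.1% of Control stellate-like cells thinned to 1000 UMIs (interval 49.1% to 64.8%, 163 cells) and in 25.7% of pIVCL ones (16.0% to 37.6%, 70 cells). At full depth these were 79.5% and 44.9%. B cell-like cells, which should lack the gene, held one in 0 of 129 and 0.107% of 936 thinned cells, at median depths of 3271 and 1839 UMIs.

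Of 14 genes for the receptor, activators and inhibitors of HGF, 8 were measured in stellate-like cells (at least 20 summed UMIs). In pIVCL 5 of these were higher and 3 lower. On the log2 scale with 20 CPM added, 2 passed 2-fold, both higher, where 5.67% of all genes were higher past it (no CPM added). The median log2 ratio was 0.11, where that of all 9009 genes was -0.021. The receptor gene Met was almost absent from stellate-like cells (5 and 0 UMIs) and was found in hepatocyte-like cells at 44.1 and 35.9 CPM. Hepatocyte-like cells also held the genes of 2 proteases that activate HGF, Hgfac at 104 and 69.6 CPM and Hpn (hepsin) at 199 and 157 CPM. In stellate-like cells Plat, the tissue plasminogen activator gene, stood at 14.7 and 58.7 CPM (ratio 3.99, 2.15 to 7.60), and Sdc1, a syndecan that binds HGF, at 14.7 and 56.7 CPM. Plat had 7 and 0 UMIs in the unmixed sub-clusters.

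Angptl6 stood at 1536 CPM in Control stellate-like cells (1879 UMIs, 1467 to 1607) and 389 CPM in pIVCL (199 UMIs, 337 to 447), a ratio of 0.253 (0.218 to 0.294). Within the unmixed set the levels were 2103 and 1139 CPM (ratio 0.542, 0.433 to 0.670). The ratio thus moved by more than 1.5 times between the sets and no longer passed 2-fold. Among 8 genes of the angiopoietin-like family and its receptors, 4 were measured and 3 of these were lower in pIVCL. Angptl2, a secreted family member, stood at 546 and 301 CPM (ratio 0.552, 0.460 to 0.658), and Angptl4, an inhibitor of lipoprotein lipase, at 47.4 and 13.7 CPM (ratio 0.289, 0.111 to 0.634). Lpl, the lipase itself, went the other way, at 270 and 497 CPM (ratio 1.84, 1.56 to 2.18).

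Bmp10 stood at 213 CPM in Control stellate-like cells (260 UMIs, 187 to 240.0) and 66.5 CPM in pIVCL (34 UMIs, 46.1 to 93.0), a ratio of 0.313 (0.212 to 0.449). In the unmixed sub-clusters it stood at 286 CPM (212 UMIs) and 152 CPM (12 UMIs), a ratio of 0.531 with the wide interval 0.270 to 0.947. Gdf2, which encodes BMP9 and pairs with BMP10 in the circulation, was nearly confined to the same class, with 1016 and 183 UMIs in stellate-like cells and at most 7 in any other class of a library. It stood at 830.5 and 358 CPM (ratio 0.431, 0.366 to 0.505), and at 1107 and 633 CPM in the unmixed sub-clusters. Of 20 genes of the BMP9/10 list, 18 were measured in stellate-like cells, 9 higher and 9 lower, with a median log2 ratio of -0.044. Of the receptor genes, Acvrl1 (ALK1) stood at 85.1 and 59.6 CPM in vascular endothelial-like cells against 11.4 and 23.5 CPM in stellate-like cells, and Eng (endoglin) at 2048 and 1449 CPM in cells like liver sinusoidal endothelium (LSEC-like) against 754 and 562 CPM. The target gene Id1 stood at 138 and 120.3 CPM in LSEC-like cells and at 481 and 245 CPM in vascular endothelial-like cells.

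**Figure D2:**
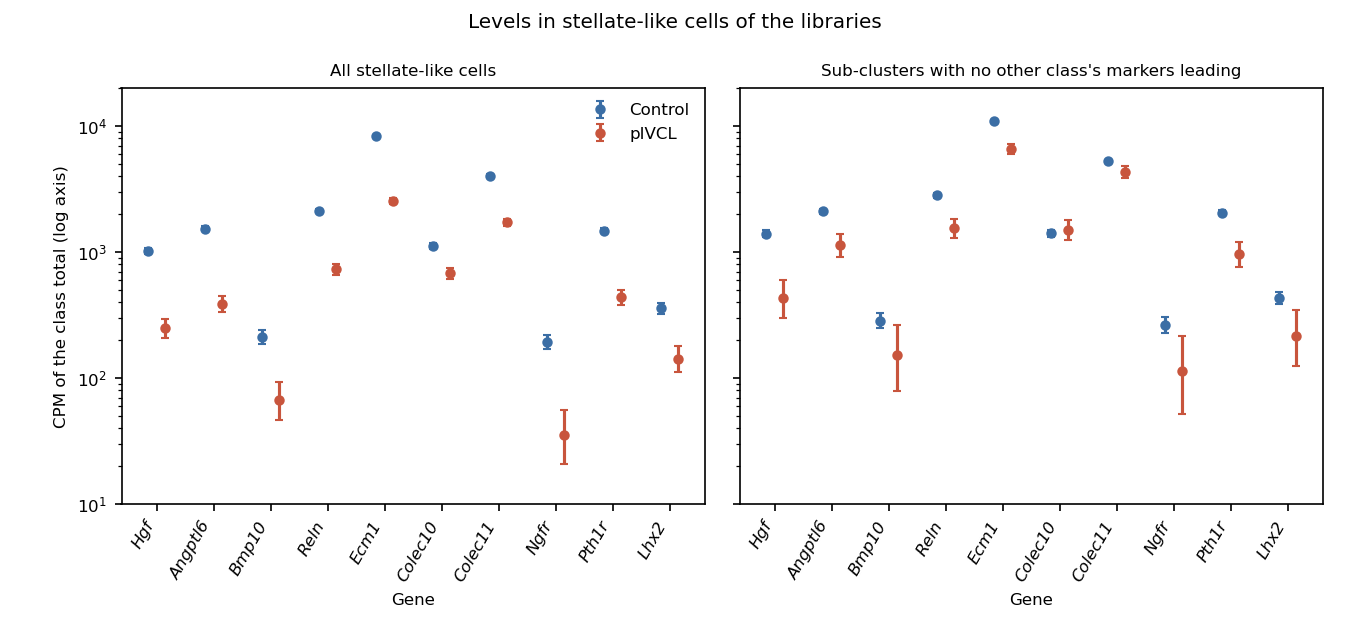
Level of each gene (CPM of the class total, log axis) in all stellate-like cells (left) and in the unmixed sub-clusters (right), with Control in blue, pIVCL in red and exact 95% Poisson intervals as bars. On the left every red point lies below its blue point; on the right Colec10 is the exception, and Colec11 lies close.

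Reln stood at 2133 CPM in Control stellate-like cells (2609 UMIs, 2052 to 2216) and 732 CPM in pIVCL (374 UMIs, 659 to 809.8), a ratio of 0.343 (0.307 to 0.383). Among the unmixed cells it stood at 2826 and 1544 CPM (ratio 0.546, 0.451 to 0.656). The reelin receptor genes were scarce in stellate-like cells, where Vldlr had 3 and 5 UMIs and Lrp8 had 0 in both libraries. Vldlr had 51 and 36 UMIs in hepatocyte-like cells, a class of 7212507 and 17870939 UMIs in all. Lrp8 had its most, 28 and 19, in plasmacytoid dendritic-like cells, a far smaller class of 201971 and 161935 UMIs. These counts are therefore not levels, and Lrp8 was not scarce in that class. In stellate-like cells Dab1, the adaptor of reelin signalling in neurons, also had 0, whereas its relative Dab2, an endocytic adaptor, stood at 115 and 172 CPM. On this list 6 of the 10 genes were measured, 2 higher and 4 lower, with a median log2 ratio of -0.18.

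Ecm1 stood at 8319 CPM in Control stellate-like cells (10177 UMIs, 8158 to 8482) and 2559 CPM in pIVCL (1308 UMIs, 2422 to 2702), a ratio of 0.308 (0.290 to 0.326). It has the most UMIs and the narrowest interval of the set. Within the unmixed set it stood at 10915 and 6569.9 CPM (ratio 0.602, 0.550 to 0.658), and so moved by more than 1.5 times between the sets. Of 15 genes on the list of latent TGF-beta, its binding proteins and its activators, 13 were measured, 10 higher and 3 lower, with a median log2 ratio of 0.44. Its largest value was that of Fbln1, also a portal fibroblast marker, at 36.8 and 274 CPM, with 0 UMIs in the unmixed sub-clusters of both libraries. Tgfb2 stood at 18.0 and 172 CPM (ratio 9.57, 5.95 to 16.0), and Thbs1, which encodes an activator of latent TGF-beta, at 14.7 and 93.9 CPM (ratio 6.38, 3.65 to 11.7). Within the unmixed sub-clusters these were 24.3 and 101 CPM for Tgfb2 (18 and 8 UMIs) and 18.9 and 139 CPM for Thbs1 (14 and 11 UMIs). Tgfb1 stood at 109 and 117 CPM in the whole class, within counting error of each other (ratio 1.08, 0.782 to 1.48).

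The collectin genes had the highest ratios of the 10 in the whole class, although the interval of Lhx2 covers that of Colec11. Without the portal fibroblast and smooth muscle sub-clusters Lhx2 stood at 0.523 and Colec11 at 0.490. Colec11 stood at 4017 CPM in Control stellate-like cells (4914 UMIs, 3905 to 4131) and 1729.5 CPM in pIVCL (884 UMIs, 1617 to 1847), a ratio of 0.431 (0.400 to 0.463). Colec10 stood at 1117 CPM (1366 UMIs, 1058 to 1177) and 679 CPM (347 UMIs, 609 to 754), a ratio of 0.608 (0.539 to 0.685). In the unmixed sub-clusters Colec11 stood at 5264 and 4355 CPM (ratio 0.827, 0.739 to 0.924). Colec10 there stood at 1413 and 1494 CPM, a ratio of 1.06 whose interval, 0.866 to 1.28, includes 1.

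Lectin pathway partners did not move as a group, with 7 of 11 measured genes higher and 4 lower (12 of 13 symbols were found, median log2 ratio 0.14). Masp1, whose protease is carried by the collectins, was itself high in stellate-like cells, at 1615 and 1066 CPM (ratio 0.660, 0.599 to 0.726), above its 282 and 305 CPM in LSEC-like cells. Among the unmixed cells Masp1 stood at 2054 and 1987 CPM. Masp2 was instead a hepatocyte-like transcript, at 124 and 140.2 CPM there against 7.36 and 15.7 CPM in stellate-like cells. Fcna, which encodes ficolin A, another lectin that starts this pathway, was lower than either collectin gene in relative terms, at 1467 and 315 CPM (ratio 0.215, 0.182 to 0.252) and at 1840 and 532 CPM in the unmixed sub-clusters. The complement gene C3 stood at 345 and 818 CPM in the whole class but at 235 and 190 CPM in the unmixed sub-clusters.

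Ngfr had the lowest ratio of the set and the fewest molecules. It stood at 193 CPM in Control stellate-like cells (236 UMIs, 169 to 219) and 35.2 CPM in pIVCL (18 UMIs, 20.9 to 55.7), a ratio of 0.183 (0.106 to 0.295). Within the unmixed set it stood at 263 CPM (195 UMIs) and 114 CPM (9 UMIs), a ratio of 0.433 (0.195 to 0.839). A Ngfr UMI was found in 19.6% of thinned Control cells (13.8% to 26.6%) and 4.29% of thinned pIVCL cells (0.893% to 12.0%), at full depth 47.4% and 11.2%, and B cell-like cells held one in 0 of 129 and 0.214% of 936 thinned cells. The tyrosine kinase receptor genes Ntrk2 and Ntrk3 had from 2 to 7 UMIs in stellate-like cells of either library. Only 4 of the 15 symbols on this list were measured, 2 higher and 2 lower.

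Pth1r stood at 1484 CPM in Control stellate-like cells (1815 UMIs, 1416 to 1553) and 436 CPM in pIVCL (223 UMIs, 381 to 497), a ratio of 0.294 (0.255 to 0.338). In the unmixed sub-clusters it stood at 2056 and 962 CPM (ratio 0.468, 0.367 to 0.589), still lower past 2-fold. Transcripts of its ligands were scarce: Pth had 0 UMIs in stellate-like cells of both libraries, and Pthlh had 0 and 4. On the PTH receptor list 11 of 13 genes were measured, 4 higher and 7 lower, with a median log2 ratio of -0.041. Gnas, the gene of the stimulatory G protein, stood at 1080 and 1049 CPM (ratio 0.971, 0.877 to 1.07), while Rgs2, a brake on G protein signalling, stood at 66.2 and 190 CPM (ratio 2.87, 2.11 to 3.90).

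Lhx2 stood at 358 CPM in Control stellate-like cells (438 UMIs, 325 to 393) and 143 CPM in pIVCL (73 UMIs, 112 to 179.6), a ratio of 0.399 (0.307 to 0.512). Among the unmixed cells it stood at 433 and 215 CPM (17 UMIs), a ratio of 0.497 (0.286 to 0.808). Of 11 genes for LIM-domain partners 7 were measured, 1 higher and 6 lower, with a median log2 ratio of -0.20, and none passed 2-fold. The cofactor gene Ldb1 stood at 59.7 and 45.0 CPM (ratio 0.754, 0.450 to 1.22). Other transcription factor genes of stellate cells had higher ratios than Lhx2 in the whole class: Hand2 stood at 411 and 209 CPM (0.509, 0.409 to 0.628) and Tcf21 at 262 and 178 CPM (0.679, 0.532 to 0.859). Whether these ratios differ from that of Lhx2 was not tested.

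**Figure D3:**
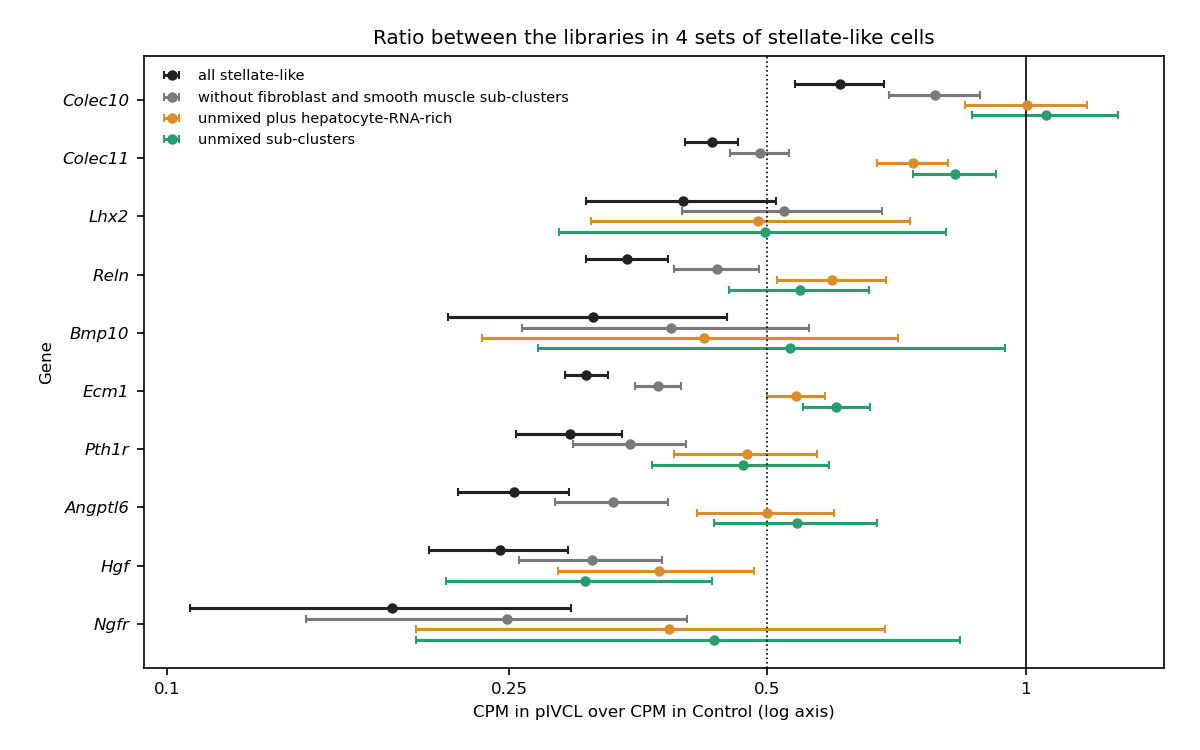
Ratio of the CPM in pIVCL over that in Control (log axis) for each gene in 4 sets of stellate-like cells, with exact 95% intervals as bars; the dotted line marks 2-fold lower and the solid line 1. Of the 4 sets, the unmixed sub-clusters lie nearest 1 for Angptl6, Bmp10, Ecm1, Colec11 and Ngfr, and the Colec10 interval spans 1 in 2 of the sets.

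The sets of cells were compared over all 10 genes. The median ratio was 0.310 in all 190 and 98 stellate-like cells and 0.380 without the portal fibroblast and smooth muscle sub-clusters (170 and 71 cells), where 8 of the 10 were lower past 2-fold, as were 8.09% of 8385 genes, or 5.98% of those with at least 200 summed UMIs, and 6.68% were higher past it. With the unmixed sub-clusters and the hepatocyte-RNA-rich sub-cluster together (154 and 49 cells) it was 0.494, with 6 of the 10 past 2-fold, as were 14.9% of 6615 genes, or 6.76% of those with at least 200 summed UMIs, and 6.06% were higher past it. Within the unmixed set alone it was 0.536, and the 4 genes past 2-fold were Hgf, Ngfr, Pth1r and Lhx2. The pIVCL side of that set held 78997 UMIs. All 10 members had at least 200 summed UMIs in these cells, and among the 609 genes with that many, 8.21% were lower past 2-fold. All intervals but that of Colec10, 9 of the 10, lay below 1 in the unmixed sub-clusters. The share of all genes with such an interval is not given, so this count describes the members only. The 17 pIVCL cells of the unmixed sub-clusters come from 1 library and are not replicates. Ngfr and Lhx2 were uneven over them. Ngfr had 0 pIVCL UMIs in sub-cluster 2 but stood at 311 and 293 CPM in sub-cluster 3 and 204 and 191 CPM in sub-cluster 8. Lhx2 had 0 pIVCL UMIs in sub-cluster 3. It stood at 445 and 244 CPM in sub-cluster 2 and at 286 and 334 CPM in sub-cluster 8.

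The libraries were also compared within each sub-cluster, for members with at least 20 summed UMIs there. All 10 were lower in pIVCL in sub-cluster 2 (57 and 8 cells), 8 of 10 in sub-cluster 3 (58 and 5 cells) and 4 of 8 in sub-cluster 8 (5 and 4 cells), where 55.9%, 53.7% and 52.7% of all genes with as many UMIs were lower. In sub-cluster 8 the ratios ran from 0.617 (Angptl6) to 1.70 (Colec10), and 2 of the intervals lay above 1, again with no share of all genes given. In the smooth muscle sub-cluster 8 of 8 were lower, with ratios from 0.139 (Angptl6) to 0.683 (Colec11), and in the Kupffer-marker sub-cluster 8 of 8, from 0.366 (Lhx2) to 0.771 (Colec10), where 49.8% and 49.7% of all genes were lower. In the sinusoidal endothelial sub-cluster 8 of 10 were lower (56.0% of all genes), and in the shallow hepatocyte-marker sub-cluster 6 of 9 (51.0% of all genes). Colec10 had the highest ratio of the measured members in 5 of the 8 sub-clusters. Levels also spanned a wide range between sub-clusters. Over both libraries Ecm1 stood at 11147 CPM in sub-cluster 3 and 639.9 CPM in the portal fibroblast sub-cluster, and Hgf at 1823 and 42.7 CPM. Angptl6, Bmp10, Reln and Colec10 had 0 UMIs in that portal fibroblast sub-cluster, where 3 UMIs would be 25.6 CPM, and Reln stood at 750.2 CPM in the smooth muscle sub-cluster.

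Most Control stellate-like cells carried most of the genes at once. A Control cell held UMIs of a median of 9 of the 10 genes and a pIVCL cell of 5. After thinning to 1000 UMIs, 147 of 163 Control cells (90.2%, interval 84.5% to 94.3%) and 43 of 70 pIVCL cells (61.4%, 49.0% to 72.8%) still held 3 or more. Cells under that depth, 27 and 28, did not enter, and the shares over all cells at full depth were 90.5% and 68.4%. In LSEC-like cells 0 of 889 and 0 of 516 thinned cells did, which at that depth allows shares of cells with such UMIs of up to 0.337% and 0.581%. At full depth 21 of 1058 Control (1.98%) and 2 of 606 pIVCL LSEC-like cells (0.330%) did. In the unmixed sub-clusters the median at full depth was 10, 9 and 10 genes in Control and 7, 8 and 8.5 in pIVCL, and in the portal fibroblast sub-cluster 3 and 1. Median depths in sub-clusters 2, 3 and 8 were 7877, 3034 and 9319 UMIs in Control and 4752, 3476 and 5505.5 in pIVCL. In the portal fibroblast sub-cluster they were 8993 and 5823 UMIs, so these medians also carry differences in depth.

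**Figure D4:**
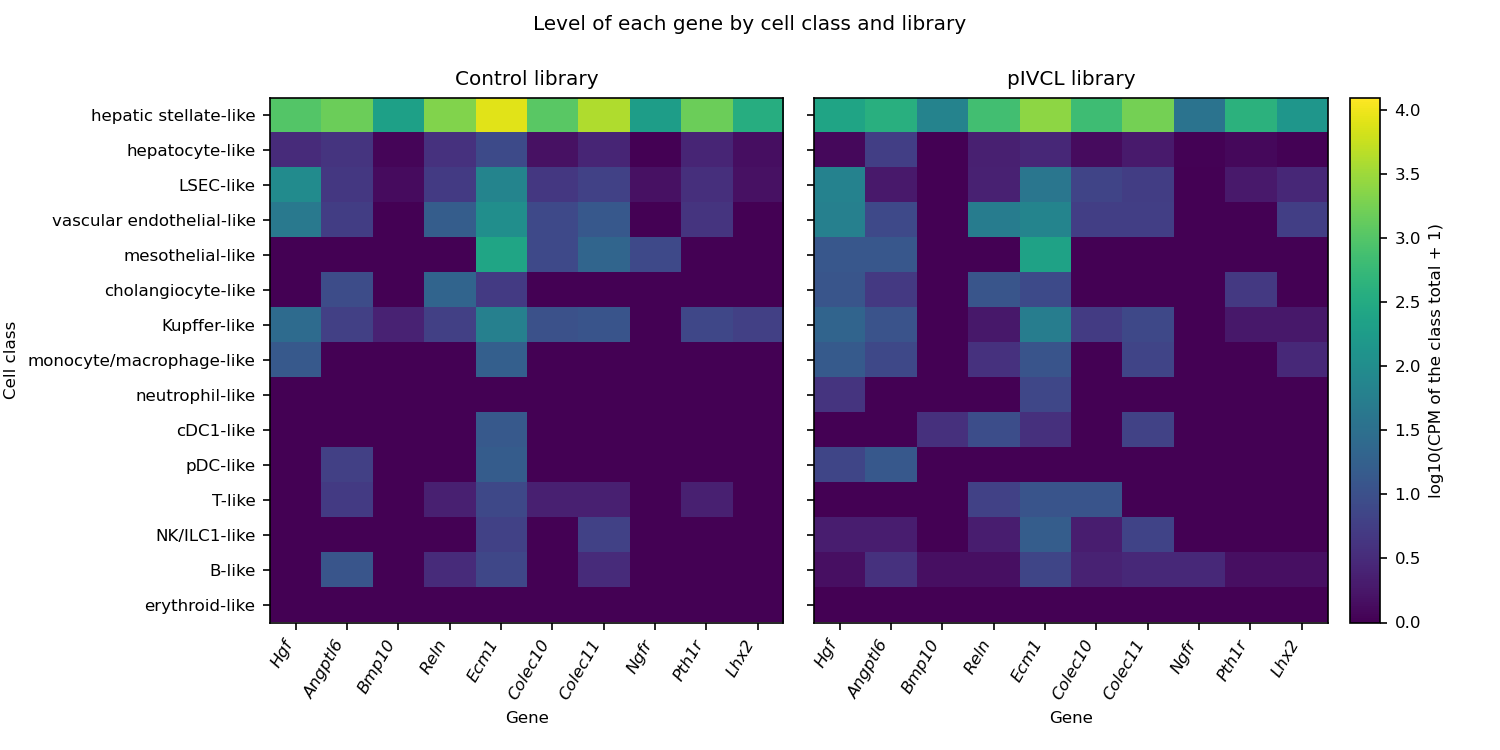
Level of each gene, log10(CPM of the class total + 1), in the 15 cell classes (rows) of the Control library (left) and the pIVCL library (right). The stellate-like row is the highest for every gene in both libraries, and outside it the levels of Hgf in LSEC-like cells and of Ecm1 in mesothelial-like and vascular endothelial-like cells can be seen.

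Outside stellate-like cells the genes were rare. Stellate-like cells held 93.2% to 98.4% of the Control library's UMIs of 9 genes, but 65.1% of those of Hgf (interval 62.9% to 67.2%). In pIVCL they held 62.6% to 96.1% for the same 9 genes and 36.9% for Hgf (31.8% to 42.3%), from a class that made up a smaller share of that library. Bmp10 had at most 2 UMIs, and Ngfr at most 4, in any other class of either library. The lowest of the 9 pIVCL shares, 62.6%, was that of Angptl6, which in hepatocyte-like cells had 23 UMIs in Control (3.19 CPM) and 84 in pIVCL (4.70 CPM), a ratio of 1.47 with an interval from 0.920 to 2.45.

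Hgf had the smallest share of its UMIs in stellate-like cells in both libraries. Its order in Control was stellate-like (1018 CPM), LSEC-like (93.0, interval 85.4 to 101), vascular endothelial-like (43.7, 33.1 to 56.6), Kupffer-like (26.6, 18.7 to 36.6), monocyte/macrophage-like (4 UMIs) and hepatocyte-like (2.22, 1.27 to 3.60). In pIVCL it was stellate-like (248), LSEC-like (65.7, 55.3 to 77.4), vascular endothelial-like (59.6, 38.5 to 87.9), Kupffer-like (20.1, 12.9 to 29.9), then several classes with at most 14 UMIs each, and hepatocyte-like cells stood at 0.224 (0.0610 to 0.573). The LSEC-like and vascular endothelial-like intervals overlap in pIVCL and not in Control, and the vascular endothelial-like and Kupffer-like intervals overlap in Control. Stellate-like cells thus stood 10.9 times (9.89 to 12.1) above LSEC-like cells in Control and 3.78 times (2.95 to 4.84) above them in pIVCL. Thinned LSEC-like cells held a Hgf UMI in 7.99% of cases in Control (6.29% to 9.97%) and 6.01% in pIVCL (4.12% to 8.42%), at full depth 30.5% and 15.02%. The ratio of Hgf in LSEC-like cells was 0.706 (0.583 to 0.851), and in that class 5.42% of 11184 genes were lower and 9.14% higher past 2-fold. Most Control cells of the class lay in cluster 3 (741 Control and 5 pIVCL cells) and most pIVCL cells in cluster 5 (11 and 455), so the value compares those clusters. Within cluster 6, which held 306 and 146 cells, the Hgf ratio was 0.887 (0.340 to 2.08), and within cluster 5 it was 2.90 (0.788 to 24.2), from 2 Control UMIs.

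Hgf was also set against 4 other members. Per 100 UMIs of Colec11, Reln, Angptl6 and Pth1r together, Hgf had 11.1 UMIs in Control stellate-like cells (10.5 to 11.8) and 602 in Control LSEC-like cells (482 to 759). In pIVCL these were 7.56 (6.26 to 9.06) and 835 (504 to 1474). In hepatocyte-like cells they were 23.5 (12.7 to 41.0) and 3.12 (0.839 to 8.20). Angptl6 supplied 84 of the 128 UMIs of these 4 genes in pIVCL hepatocyte-like cells. Ecm1 measured the same way stood at 90.7 and 77.9 in stellate-like cells and 446 and 506 in LSEC-like cells.

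Ecm1 came next in mesothelial-like cells, at 260 CPM in Control (37 UMIs, 183 to 358) and 229 in pIVCL (19 UMIs, 138 to 358), which do not differ beyond counting error. Below them in Control stood vascular endothelial-like cells at 104 CPM (86.8 to 123), LSEC-like cells at 68.9 (62.3 to 75.9) and Kupffer-like cells at 60.3 (48.1 to 74.7), of which the last pair overlap. In pIVCL the order was vascular endothelial-like (69.1, 46.3 to 99.2), Kupffer-like (54.4, 42.0 to 69.3) and LSEC-like (39.8, 31.8 to 49.1), each overlapping with its neighbour. The ratio in LSEC-like cells was 0.578 (0.453 to 0.731), between the same differing clusters, and within cluster 6 it was 0.931 (0.355 to 2.21) and within cluster 5 0.477 (0.221 to 1.23).

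Reln stood higher in pIVCL in another class. In vascular endothelial-like cells it stood at 15.3 CPM in Control (20 UMIs, 9.37 to 23.7) and 52.4 CPM in pIVCL (22 UMIs, 32.8 to 79.4), a ratio of 3.42 (1.78 to 6.60), where 7.47% of 8780 genes were higher and 6.59% lower past 2-fold. Cholangiocyte-like cells held it in 5 and 3 UMIs. The class has 2 clusters, and Reln lay in cluster 18, whose leading genes are Rspo3, Ccl21a, Vwf and Mmrn1 and which held 36 Control and 48 pIVCL cells. Within it Reln stood at 53.2 and 70.6 CPM (ratio 1.33, 0.673 to 2.66). Cluster 14, the other one, held 124 and 26 cells with 3 and 0 Reln UMIs, and it held Hgf at 50.8 CPM in Control (50 UMIs) and 166 in pIVCL (18 UMIs), a ratio of 3.28 (1.80 to 5.72). Over the class, Hgf stood at a ratio of 1.36 (0.816 to 2.21).

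**Figure D5:**
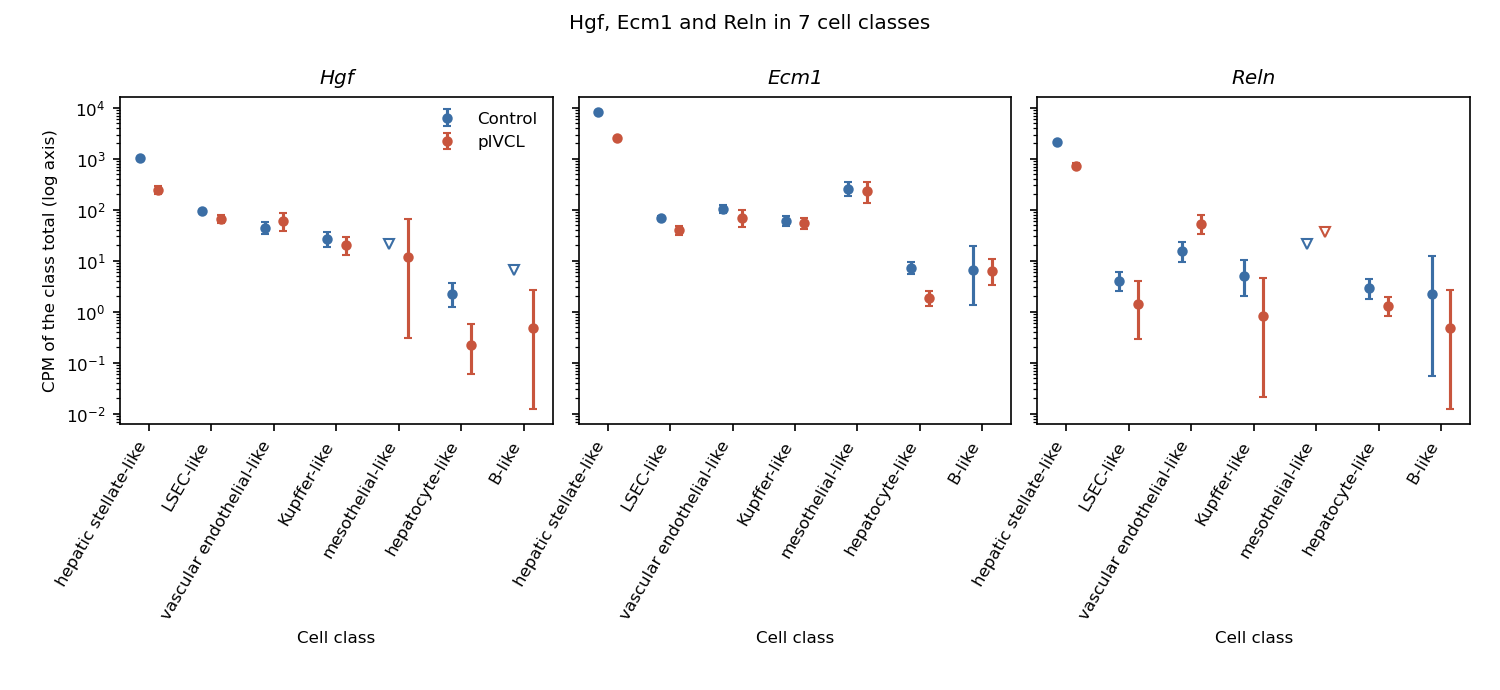
Hgf, Ecm1 and Reln (CPM of the class total, log axis) in 7 cell classes of the Control (blue) and pIVCL (red) libraries, with exact 95% Poisson intervals as bars; an open triangle marks a class with 0 UMIs at the level that 3 UMIs would give. Hgf steps down from stellate-like to endothelial classes, Ecm1 is next highest in mesothelial-like cells, and Reln reaches 52.4 CPM in vascular endothelial-like cells of pIVCL.

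Other stellate genes were counted over lists that hold no member. Of 19 genes for retinoid and lipid storage and quiescence, 17 were measured in stellate-like cells, 15 lower and 2 higher in pIVCL, with a median log2 ratio of -0.50 and none past 2-fold. Over all 9009 genes 52.4% were lower, with a median of -0.021. Gfap was one of the 2 not measured (16 and 1 UMIs). Among the unmixed cells 9 of the 17 were lower and 8 higher, and the median was -0.052, beside -0.093 for all 6068 genes. There Lrat, at 2139 and 2063 CPM, was close between the libraries. The 10 members had medians of -1.61 in the whole class and -0.87 in the unmixed sub-clusters on the same scale.

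Of 24 genes of activation and scar matrix, 22 were measured in the whole class, 21 higher and 1 lower, 12 of them higher past 2-fold, where 5.67% of all genes were (with no CPM added), with a median log2 ratio of 1.21. Tagln, an actin-binding protein of contractile cells, stood at 350 and 1270 CPM and Lox, the collagen cross-linking enzyme gene, at 4.09 (5 UMIs) and 97.8 CPM. Within the unmixed set 14 of 18 were higher and 8 passed 2-fold, where 7.0% of all genes were higher past it, with a median of 0.71. Col1a1 there stood at 74.2 (55 UMIs) and 215 CPM (17 UMIs), Tagln at 169 and 975 CPM and Acta2 at 6.75 (5 UMIs) and 165 CPM (13 UMIs), whereas Col3a1 stood at 865 and 835 CPM. Of 17 genes that rise during tissue dissociation, 15 were higher and 2 lower in the whole class. Past 2-fold stood 2 of the 17, both higher, where 5.67% of all genes were higher past it (with no CPM added). The median of the 17 was 0.47, beside -0.021 for all 9009 genes. In the unmixed sub-clusters 14 of 15 were higher and 9 passed 2-fold, where 7.0% of all genes were higher past it (with no CPM added). The median there was 1.08, beside -0.093 for all 6068 genes. The part of the dissociation genes in the members' ratios was not tested.

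Stellate-like cells were also divided by whether they held more UMIs of a portal-leaning or of a central-leaning gene list, neither of which holds a member. In Control 30 cells leaned portal and 144 central, with median depths of 3159 and 6951.5 UMIs, and in pIVCL 45 and 42. The division cuts a continuous count, and 30 Control and 21 pIVCL cells lay within 1 UMI of its boundary. In Control, Ngfr was higher in portal-leaning cells, at 333 CPM (37 UMIs) against 178, a ratio of 1.87 (1.28 to 2.67), as was Pth1r, at 1818 against 1454 CPM (1.25, 1.07 to 1.45). Lhx2 was lower there, at 198 CPM (22 UMIs) against 381 (0.520, 0.322 to 0.798), and so was Colec11, at 3230.3 against 4089.9 CPM (0.790, 0.707 to 0.880). The other 6 lay between 0.856 and 1.16, and of these Ecm1 had an interval below 1 in both libraries (0.921, 0.858 to 0.988, in Control and 0.810, 0.725 to 0.904, in pIVCL). In the unmixed sub-clusters of Control Ngfr kept a ratio of 2.13 (1.40 to 3.14) and Lhx2 one of 0.621 (0.357 to 1.01). Ecm1 stood there at 0.966 with an interval that includes 1 (0.890 to 1.05), beside 0.829 (0.691 to 0.992) in unmixed pIVCL cells. Hgf, at 1.31 (1.06 to 1.595), and Reln, at 1.21 (1.04 to 1.40), had intervals above 1 in the unmixed Control cells. In pIVCL, Ngfr had 14 UMIs in portal-leaning and 3 in central-leaning cells, and the ratios of Lhx2, 1.43 (0.864 to 2.43), and Colec11, 1.03 (0.899 to 1.18), were not below 1 there.

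For each member the 3 other genes with the most similar profile were taken by Pearson correlation of log2(CPM + 20) over 27 points, the class by library combinations with at least 20 cells. These points share 2 libraries and their depths, and the 2 stellate-like points set most of the correlation. The 30 places were filled by 23 genes, all highest in Control stellate-like cells, with r from 0.945 to 0.999. Ednra, the endothelin receptor A gene, was among the nearest to Angptl6, Bmp10 and Lhx2, and stood at 224 and 78.3 CPM. Bmp5, a BMP ligand gene, was nearest to Colec10, and Ntm, a neural adhesion gene, to Ngfr at 273 and 39.1 CPM. Epor, the erythropoietin receptor gene, was nearest to Hgf, at 67.0 and 21.5 CPM. All 23 stood lower in pIVCL stellate-like cells and 14 past 2-fold, where 52.4% and 7.29% of all 9009 genes did. In the unmixed sub-clusters 19 stood lower and 6 past 2-fold, where 56.4% and 20.9% of all 6068 genes did. A gene that is highest in Control stellate-like cells is by that fact lower in pIVCL ones, and the likeness was built on the same levels. These counts are therefore a description and cannot be read against the shares of all genes.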

How the data were processed

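Droplet single-cell RNA sequencing (10x Genomics 3' v2 chemistry, per the labels' protocols) gave 1 library each for pIVCL and Control. UMI counts per gene and barcode were deposited, whole and not normalized; Cell Ranger (version 3.0.2) and the mm10 build are named in the submitters' processing notes, and the sources give no annotation release. The files held 3574 Control and 7042 pIVCL barcodes with at least 500 UMIs each (24637681 and 38154000 UMIs), beside a stated target capture of 12000 cells.

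Barcodes were kept with at least 500 UMIs, 200 genes and at most 25% mitochondrial UMIs, which removed 848 Control and 1596 pIVCL barcodes. Scrublet (scanpy 1.11.5, expected rate 6%) called 8 and 3 doublets (0.293% and 0.0551%), too few to count as having worked, and these were removed. Both libraries were clustered together without integration (2000 variable genes without the 10 members, 8 of which were among them, 30 principal components, 20 neighbours, leidenalg 0.10.2, resolution 1; Python 3.11.15, numpy 2.4.6, scipy 1.17.1, scikit-learn 1.9.0, pandas 2.3.3, anndata 0.12.19). The 24 clusters fell into 15 classes by 186 markers of 21 classes, each needing at least 3 markers detected in 10% of its cells; names may therefore differ from the study's own. Stellate-like cells were clustered again (1000 genes, 15 components, 15 neighbours), and a sub-cluster with 3 or more markers of another class among its 10 genes of highest fold was called mixed, a rule added after seeing the data. Levels are summed UMIs scaled to CPM, with exact Poisson intervals for levels, Clopper-Pearson intervals for shares and conditional binomial intervals for ratios. The ratio intervals alone were run on simulated Poisson counts, which hold no spread between cells and so cannot show how the intervals cover it. The floor for a count of 0 is 3 UMIs. Called means past 2-fold with at least 20 summed UMIs; list medians used log2 ratios with 20 CPM added, which understates low genes, and a list gene counts as past 2-fold on that scale. Shares of cells with a UMI used cells thinned to 1000 UMIs. Figures were drawn with matplotlib 3.10.9.

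The members and the lists were chosen with earlier results of these data known. Genes named are the members, for each the 3 most similar genes with at least 50 CPM at their highest point (mitochondrial, ribosomal protein and unnamed genes left out), of each list the direct receptor or ligand and the 2 to 4 genes of largest log2 ratio, and the markers that gave the stellate label. Lpl, Gnas, Ldb1, Tgfb1, Tcf21, Masp1, Masp2, Id1, Hpn, Hgfac, Tagln, Gfap and the unmixed values of listed genes were chosen after their values were seen. The alternatives were other cell filters, clustering with the members, resolution 2, classes set per cell, other scalings, thinning depths and added CPM, and sets of sub-clusters. Some items are not reported here.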

Additional observations from a re-analysis of the deposited data

Results flagged for a closer look

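Reln stood higher in pIVCL in vascular endothelial-like cells, at a ratio of 3.42 (1.78 to 6.60, 20 and 22 UMIs), while it stood lower in stellate-like cells, at 0.343 (0.307 to 0.383). The opposite directions in the 2 classes are what marked it out, each from 1 library per group, and the difference was not tested. The Reln UMIs of the class lay mainly in cluster 18, which made up 36 of 160 Control and 48 of 74 pIVCL cells, and within that cluster the ratio was 1.33 (0.673 to 2.66).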

How the results depend on the processing

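No paired analysis was possible because each group held 1 library. The 10 ratios in stellate-like cells were recomputed under 14 alternatives each, 140 values, of which 138 stayed below 1 and 116 below 0.5. The 2 that crossed 1 were both Colec10, at 1.06 in the unmixed sub-clusters and 1.00 with the hepatocyte-RNA-rich sub-cluster added; these sets hold 17 and 49 pIVCL cells. The number of members lower past 2-fold was 9 and became 4 in the unmixed sub-clusters, which were chosen after seeing the data, and lay between 6 and 9 under the other alternatives. Leiden resolution 2 divided the mesenchymal cells into a stellate-like cluster (150 and 66 cells) and a smooth muscle-like one (42 and 41 cells), and 8 of the 10 genes were then highest in stellate-like cells of both libraries. The median share of a member's UMIs in Control stellate-like cells, 97.1%, was 98.2% under the stricter cell filter, 95.3% at resolution 2 and 95.5% over all barcodes. The median share of cells with a member UMI, 66.0% in Control and 28.6% in pIVCL, was 44.2% and 16.3% when thinned to 500 UMIs and 82.2% and 43.9% at 2000. The background of genes lower past 2-fold, 7.29%, was 18.4% with no filter beyond 1 UMI, where low counts add noise. The median log2 ratio of the quiescence list, -0.50, was -0.052 in the unmixed sub-clusters, and that of the activation list, 1.21, was 1.47 with 5 CPM added and 0.71 in the unmixed sub-clusters. By Spearman in place of Pearson correlation, 1 of the 30 pairs of member and similar gene was shared (Nr1h5 with Bmp10), and 5 genes appeared under both measures. Ngfr (18 pIVCL UMIs) and Bmp10 (34) are limited most by depth.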
